A study of Homo sapiens with 9 samples.

Results

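The transcriptome of control AGS cells was described from the arrays whose titles name the scrambled hairpin, which are 4 of the 9 arrays of the series and hold 3 of its 6 biological replicates over both groups. AGS is an established human gastric adenocarcinoma line that grows as a monolayer. The control cells (SCR) were stably transduced with a lentiviral short hairpin RNA of scrambled sequence, and were grown in DMEM with serum and antibiotics. They therefore carry an integrated vector and make a hairpin, as the HIF-1alpha knock-down cells of the series do, and they are a single line. For replicates 1 and 2, a single SCR array was hybridized per replicate on Illumina HumanRef-8 BeadChips. Replicate 3 has 2 technical SCR arrays on HumanHT-12 BeadChips, and these were averaged. The array version and replicate 3 cannot be told apart. The labels number the replicates without saying how the cultures were kept apart, so the spread between them may be partly technical.

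A BeadChip reports each transcript through probes of fixed sequence, and the brightness of a probe depends on how well that probe binds as well as on the amount of RNA. The signals below therefore rank probes and not molecules. A probe counted as detected on an array where its deposited detection p-value, the chance of such a signal from a negative control, was under 0.01. Levels are background-corrected, quantile-normalized log2 signals, given as the mean ± SD over n = 3 replicates, and a gene is represented by the brightest of the probes that both array versions hold. A stomach epithelial cell is known for its keratin filaments, mucins and tight junctions, while carcinomas of the stomach often also make proteins of the intestinal lining.

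Of 17054 genes with a probe on both versions, 7999 (46.9%) were detected on all 4 arrays, 6377 (37.4%) on none and 2678 (15.7%) on some. The median signal was 7.90 among genes detected on all arrays and 4.25 among genes detected on none, with the median over all common probes at 4.71. Replicate 1 had the widest detection, with 55.6% of common probes under the threshold, against 46.7% in replicate 2 and 44.4% and 46.9% on the technical arrays of replicate 3. It also held 920 of the 1244 genes detected on a single array. Olfactory receptor genes, which act in the nose, gave a check of the background, since 0 of 361 were detected on all arrays and 330 on none. The share of their 362 probes under the threshold was 4.97% in replicate 1, 3.04% in replicate 2 and 1.38% and 1.93% in replicate 3.

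A gene that was not detected is one whose probes were not above background, which is not the same as a gene without transcripts. RPL10, a protein of every ribosome, and VDAC2, a channel of the mitochondrial outer membrane, were detected on no array, each from 1 probe. The signals over the replicates lay between 4.21 and 4.31 for RPL10 and between 4.19 and 4.23 for VDAC2. Of 74 cytosolic ribosomal protein symbols, 68 (91.9%) were detected on all arrays. Probes of the same gene also differed. Among 3452 genes with several common probes, 680 (19.7%) had at least 1 probe detected on all arrays and at least 1 detected on none.

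The 6 epithelial markers of the line, KRT8, KRT18, KRT19, CLDN18, MUC1 and EPCAM, were detected on all 4 arrays. KRT19, a keratin of simple epithelia, had signals of 12.91, 12.20 and 12.02 in replicates 1, 2 and 3, and stood at the 99.1st percentile of genes or above in each. MUC1, a membrane mucin, had 12.20, 11.87 and 12.21. KRT8 had 10.95, 10.71 and 10.97. KRT18, the filament partner of KRT8, had 6.50, 7.01 and 6.93 from the brighter of its 2 probes. The SD over replicates was 0.47 for KRT19, 0.19 for MUC1, 0.15 for KRT8 and 0.27 for KRT18, beside a median of 0.34 among detected genes.

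EPCAM and CLDN18 varied far more. EPCAM, an epithelial adhesion molecule, had a signal of 6.57 in replicate 1 and 5.71 in replicate 2 on HumanRef-8, and 10.09 and 10.38 on the HumanHT-12 technical arrays of replicate 3. CLDN18, the tight junction claudin of stomach and lung, had 6.60 and 7.69 on HumanRef-8 and 9.76 and 10.11 on HumanHT-12. Neither gene's values overlapped between the versions, and their SDs of 2.41 and 1.70 were far above that median. EPCAM has 1 probe and CLDN18 has 4, of which these values come from the only one detected on all arrays. Another CLDN18 probe showed the gap as well, with 4.81 and 4.17 on HumanRef-8 and 7.22 and 7.74 on HumanHT-12. One detected on 3 arrays did not, with 4.94 and 5.26 on HumanRef-8 and 4.65 and 4.97 on HumanHT-12, so the gap is not one of every probe of the gene.

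**Figure D1:**
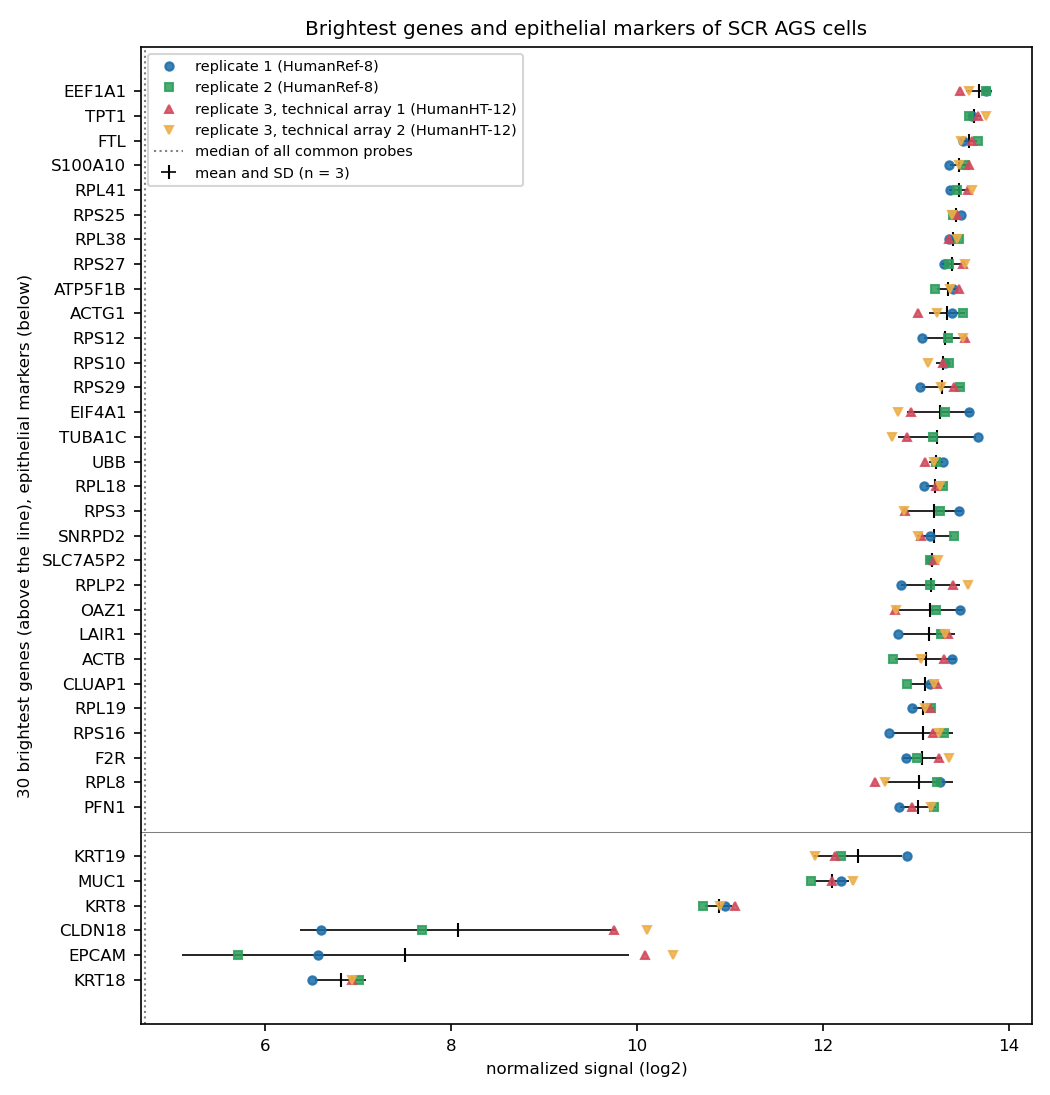
Normalized log2 signal (horizontal axis) of the 30 brightest genes, above the grey line, and of the 6 epithelial markers, below it, with 1 symbol per array and a black tick and bar for the mean and SD over 3 replicates. The 30 brightest genes lie between means of 13.02 and 13.68, and among the markers EPCAM and CLDN18 have the widest spread, with both HumanHT-12 arrays above both HumanRef-8 arrays.

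Genes of the protein synthesis machinery made up much of the brightest signal. EEF1A1, the elongation factor that brings aminoacyl-tRNA to the ribosome, had the highest mean, with 13.76, 13.76 and 13.52 in replicates 1, 2 and 3. It was followed by TPT1, the translationally controlled tumor protein, with 13.61, 13.58 and 13.72. FTL, the light chain of the iron store ferritin, came next with 13.51, 13.67 and 13.55, and S100A10, the partner of annexin A2, had 13.36, 13.53 and 13.52. The order among these genes is not one of amount of RNA. Their values overlapped across replicates, except that every S100A10 value was below every TPT1 value. Ribosomal proteins took 13 of the following places up to rank 30, headed by RPL41 (13.47 ± 0.11), RPS25 (13.44 ± 0.05), RPL38 (13.41 ± 0.05) and RPS27 (13.40 ± 0.11).

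Over the 100 brightest genes, whose means lay between 12.32 and 13.68, cytosolic ribosomal proteins were 29, translation factors 7, cytoskeletal proteins 8, and proteins of the respiratory chain and ATP synthase 5. Put the other way, 39.2% of the ribosomal protein genes measured were among the 100 brightest. The glycolytic enzymes GAPDH, ENO1 and LDHA were there as well, and all 10 glycolytic genes measured were detected on all arrays. GAPDH had 12.99 ± 0.20 and ENO1 12.98 ± 0.17, while LDHA, the lactate dehydrogenase subunit of glycolytic cells, varied more, with 13.25, 12.22 and 12.14. KRT19 was the only keratin among the 100. Membrane proteins outside these classes included the tetraspanins CD81 (12.84 ± 0.12) and CD151 (12.38 ± 0.18) and the protease inhibitor SPINT2 (12.69 ± 0.15). The tetraspanins, SPINT2 and the glycolytic genes were named here after their values had been seen. The median SD of the 100 genes was 0.27 and the highest 0.64.

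Some of the brightest probes had levels that the other probes of the same gene did not bear out. LAIR1, an inhibitory receptor of leukocytes, had a mean of 13.14 from 1 probe and 4.48 from another that was detected on no array. CLUAP1, a protein of ciliary transport, had 13.10 from its brightest probe and 6.45 and 7.60 from the others, which were also detected on all arrays. SLC7A5P2, a pseudogene of the amino acid transporter gene SLC7A5, had 13.18 from 1 probe and 4.69 from the other. A probe for a pseudogene can also bind the transcript of its parent gene, and which transcripts these bright probes bind was not tested. Of the 33 genes among the 100 brightest with several probes, 4 had a probe detected on no array.

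The promoters of the brightest genes are shown because many of them share a feature at the first transcribed base. Many mRNAs of the translation machinery start with a C followed by a run of pyrimidines, the terminal oligopyrimidine (TOP) tract, through which growth signals are known to control their translation. The sequences below are from RefSeq (GRCh38.p14), 5′ to 3′ on the strand of the gene, from 40 bases before the annotated start to 20 bases after it, with the tract in capitals where a C at the start was followed by at least 4 bases that are C or T. They belong to the brightest genes with such a tract, in order of signal.
EEF1A1 (chr6:73521013-73521072, minus strand): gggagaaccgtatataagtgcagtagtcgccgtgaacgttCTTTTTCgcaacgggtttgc
TPT1 (chr13:45341164-45341223, minus strand): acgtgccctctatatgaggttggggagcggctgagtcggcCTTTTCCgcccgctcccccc
RPL41 (chr12:56116593-56116652, plus strand): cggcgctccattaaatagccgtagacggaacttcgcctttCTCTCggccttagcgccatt
RPS25 (chr11:119018324-119018383, minus strand): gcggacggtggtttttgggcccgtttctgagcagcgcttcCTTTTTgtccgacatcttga
RPL38 (chr17:74203638-74203697, plus strand): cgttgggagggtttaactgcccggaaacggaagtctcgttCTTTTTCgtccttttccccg
RPS27 (chr1:153990722-153990781, plus strand): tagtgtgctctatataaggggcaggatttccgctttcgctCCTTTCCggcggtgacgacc
RPS12 (chr6:132814529-132814588, plus strand): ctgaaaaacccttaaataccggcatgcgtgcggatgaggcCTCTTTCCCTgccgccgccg
RPS10 (chr6:34426050-34426109, minus strand): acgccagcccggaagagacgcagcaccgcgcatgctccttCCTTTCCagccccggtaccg

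For contrast, FTL and S100A10, ranked between TPT1 and RPL41 by signal, have no such tract at the annotated start.
FTL (chr19:48965269-48965328, plus strand): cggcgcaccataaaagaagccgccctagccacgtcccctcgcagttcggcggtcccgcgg
S100A10 (chr1:151993840-151993899, minus strand): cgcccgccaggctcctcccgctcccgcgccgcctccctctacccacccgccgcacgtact

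Of the 30 brightest genes, 25 had a promoter in the RefSeq table and 12 of these had the tract. It was present in 31.3% of the 83 promoters matched among the 100 brightest genes, against 4.66% of the 13658 promoters matched in all and 4.04% of all 27305 promoters of the table. Ribosomal proteins carried much of this, with the tract in 40 of 62 promoters (64.5%). Without them the 100 brightest genes had it in 8 of 58 (13.8%). When genes detected on all arrays were divided by signal into 4 groups of equal size, the share was 8.83% in the brightest group and 4.69%, 5.52% and 4.74% in the others, from brighter to dimmer. These groups include the ribosomal proteins. Over all genes detected on all arrays the share was 5.94% with ribosomal proteins and 5.4% without them.

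Promoters of genes detected on all arrays and on none also differed in composition. The ratio of observed to expected CpG over 250 bases before and 50 after the start had a median of 0.86 in genes detected on all arrays and 0.48 in genes detected on none. GGGCGG, the core of the GC box, searched on both strands over the 250 bases before the start, was found in 68.7% of promoters of genes detected on all arrays and 41.5% of those detected on none, against 57.3% of all matched promoters and 42.3% of the whole table. CCAAT, searched in the same way, differed less, with 36.5% and 32.8%, against 34.9% and 33.0%. The letters TATAAA on the strand of the gene, between 40 and 16 bases before the start, were present in 1.48% of genes detected on all arrays and 6.63% of genes detected on none, against 3.6% of matched promoters and 2.54% of the table. The motifs were searched for separately and may overlap each other, and 7 matched promoters held both TATAAA and the tract. A match is a description of the sequence and not evidence that a factor binds.

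Among the genes of the lineage, receptor and transporter lists described next, TATAAA was found in 12 of 233 matched promoters of members detected on all arrays and in 20 of 229 of members detected on none. MUC1 and the transferrin receptor gene TFRC, both detected on all arrays, and ATP4B, FABP1 and AFP, genes of parietal cell, enterocyte and fetal liver that were detected on none, are shown with these letters in capitals.
MUC1 (chr1:155192896-155192955, minus strand): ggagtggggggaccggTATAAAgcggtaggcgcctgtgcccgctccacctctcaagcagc
TFRC (chr3:196082071-196082130, minus strand): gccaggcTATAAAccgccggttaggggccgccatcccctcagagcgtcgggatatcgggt
ATP4B (chr13:113658179-113658238, minus strand): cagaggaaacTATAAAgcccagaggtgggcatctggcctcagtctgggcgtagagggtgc
FABP1 (chr2:88128043-88128102, minus strand): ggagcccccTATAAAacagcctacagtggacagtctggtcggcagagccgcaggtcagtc
AFP (chr4:73436181-73436240, plus strand): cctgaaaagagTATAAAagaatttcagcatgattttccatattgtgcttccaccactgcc

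**Figure D2:**
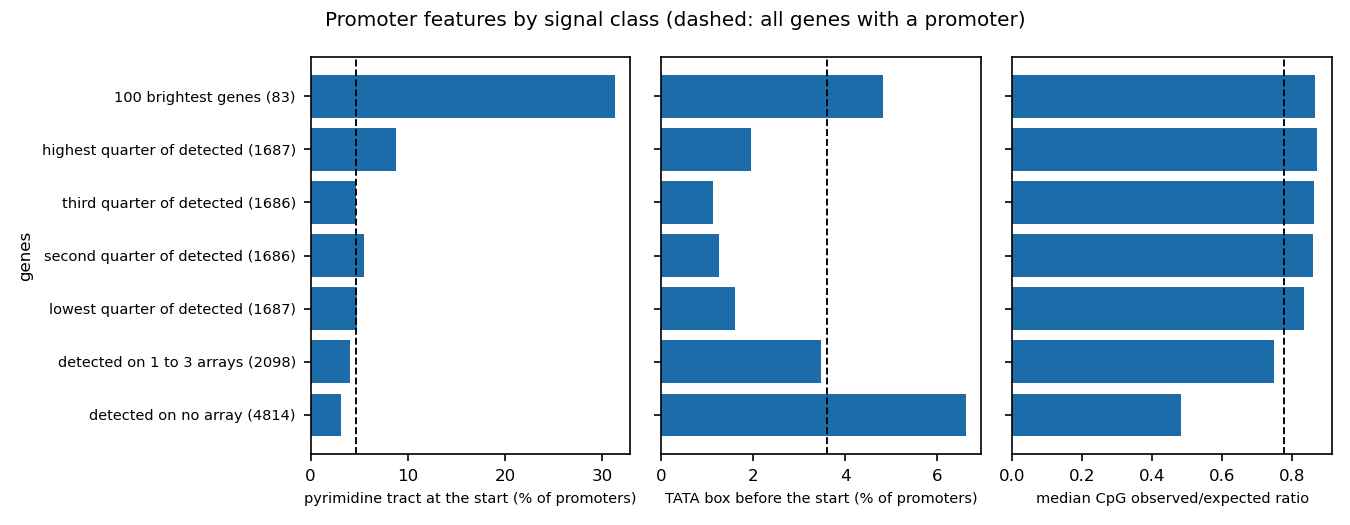
Share of promoters with the pyrimidine tract (left, %), share with TATAAA (middle, %) and median CpG observed/expected ratio (right) in classes of genes by signal and detection, with the number of promoters in parentheses and a dashed line for all 13658 matched promoters. The tract reaches 31.3% in the 100 brightest genes, while TATAAA reaches 6.63% and the CpG ratio falls to 0.48 in genes detected on no array.

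To place the cells among tissues and to see which signals and substrates they could take up, 748 genes of 25 lists with a common probe were counted by detection. Of 202 lineage genes 63 (31.2%) were detected on all arrays and 110 (54.5%) on none. Receptor genes stood at 98 of 273 (35.9%) and transporter genes at 133 of 273 (48.7%), beside the 46.9% of all genes measured. The counts of every list below stand beside this 46.9% and the 37.4% of all genes detected on none. Among single lists the share detected on all arrays ran from 5.26% for parietal, chief and endocrine cells of the stomach to 75.0% for simple epithelial identity.

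**Figure D3:**
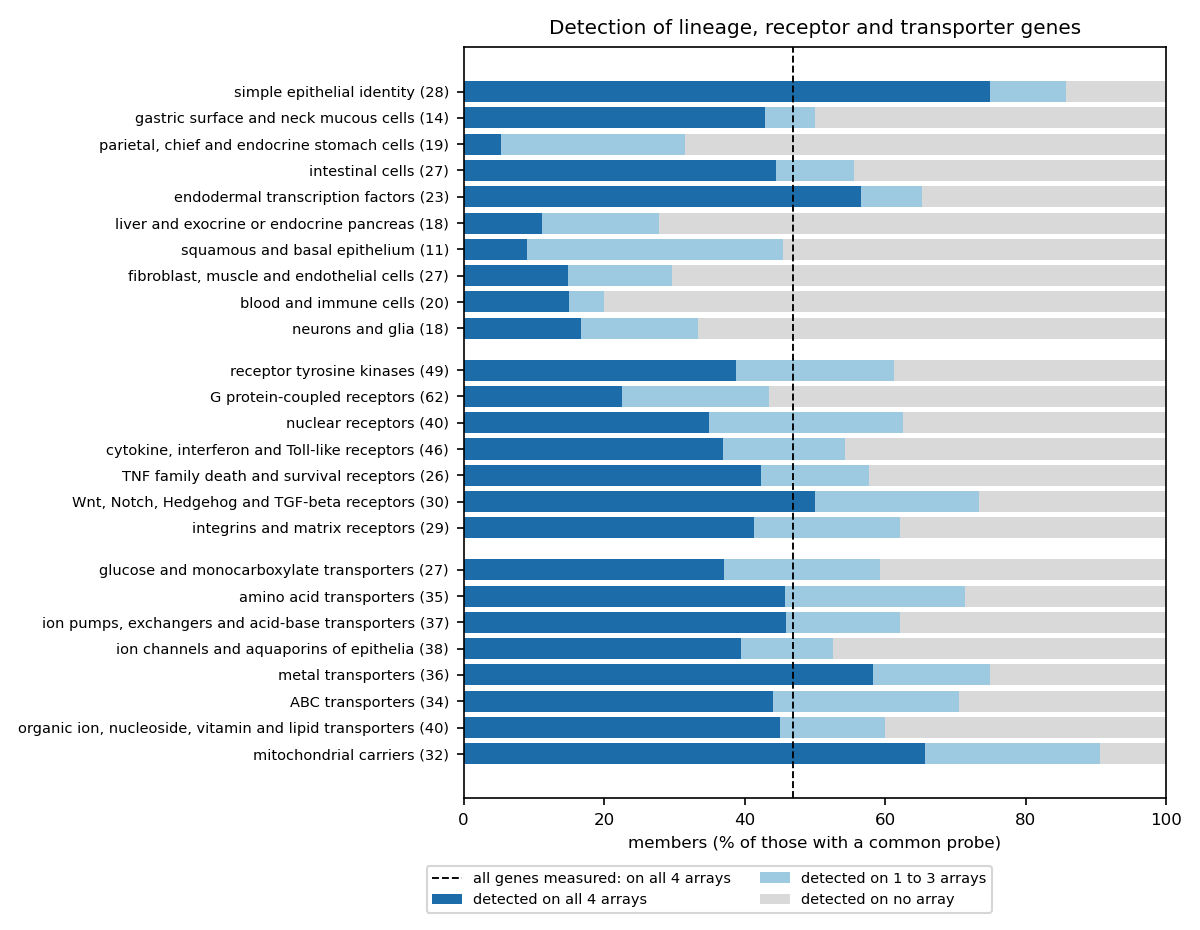
Members of each lineage, receptor and transporter list detected on all 4 arrays, on 1 to 3 or on none, as a percentage of the members with a common probe (their number in parentheses), with a dashed line at 46.9%, the share of all genes detected on all arrays. Simple epithelial identity (75.0%), mitochondrial carriers (65.6%) and metal transporters (58.3%) lie farthest to the right of that line.

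Of 28 genes of simple epithelial identity 21 were detected on all arrays and 4 on none, with a median signal of 8.07 in the 21, beside 7.90 in all detected genes. CLDN7, a claudin of tight junctions, had 9.74, 10.73 and 10.39 in replicates 1, 2 and 3, and JUP, the junction protein plakoglobin, had 10.03, 10.68 and 9.81. The tight junction scaffold TJP1 (9.44 ± 0.31), the epithelial transcription factor ELF3 (9.81 ± 0.17) and the desmosomal cadherin DSC2 (8.40 ± 0.24) were also detected throughout. CDH1, the epithelial cadherin, was dimmer at 6.43 ± 0.07 and was named after its value was seen. KRT7, CDH3, CLDN3 and ESRP2 were detected on no array, and the junction genes CLDN4 and DSP on 3 arrays and 1 array. Of all 19 claudin symbols 8 (42.1%) were detected on all arrays and 8 on none. Over all 48 keratin genes measured, 6 were detected on all arrays (KRT19, KRT8, KRT10, KRT80, KRT18 and KRT13) and 37 on none.

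Genes of the gastric mucous cells were split. FOXQ1, a forkhead factor known in mouse from the surface mucous cells of the stomach, was bright at 12.02, 11.34 and 11.65. SOX2, the stomach and foregut transcription factor, had 8.19, 8.36 and 8.04. PGC, the precursor of gastricsin, had 7.80, 8.76 and 9.73, and TFF1, the trefoil peptide of surface cells, had 5.34 and 5.86 on HumanRef-8 and 8.60 on HumanHT-12. With CLDN18 and ANXA10 (5.89 ± 0.41), these made 6 of 14 detected on all arrays. TFF2, GKN1, PSCA, VSIG1, CAPN9, SULT1C2 and AQP5 were the 7 detected on none. MUC6 had a probe on HumanHT-12 alone and was detected on 1 of the 2 arrays of that version. Of the 19 genes of parietal, chief and endocrine cells, CBLIF, which encodes the intrinsic factor of parietal cells, was the only one detected on all arrays, with 5.59, 6.82 and 8.11. The acid pump subunit ATP4B, the channel subunit KCNE2 and the pepsinogen genes PGA3 and PGA5 were among the 13 detected on none, as were SST, GHRL and CHGA. ATP4A, the catalytic subunit of the acid pump, was detected on the HumanHT-12 arrays alone, with 4.43 and 4.13 on HumanRef-8 and 7.50 and 7.54 on HumanHT-12, from 1 probe. The other 4 genes of the list were also detected on some arrays only.

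Part of the intestinal list was detected as well. REG4, a secreted lectin of enteroendocrine and goblet cells, had 11.39, 10.72 and 11.59, and CDH17, the liver-intestine cadherin, had 11.52, 11.37 and 10.54. The homeobox factor CDX2, which directs the intestinal program, had 8.84, 9.19 and 9.33, and VIL1, the microvillus protein villin, had 8.57, 8.53 and 8.46. LGALS4 (9.79 ± 0.85) and TM4SF5 (9.53 ± 0.65) were detected as well, together with the crypt stem cell genes OLFM4 (8.12 ± 0.83) and LGR5 (7.92 ± 0.67). In all, 12 of 27 intestinal genes (44.4%) were detected on all arrays and 12 on none, beside 46.9% and 37.4% of all genes measured. CDX1, MUC2, KRT20, FABP1, FABP2 and SI, most of which mark mature enterocytes or goblet cells, were among the 12 detected nowhere.

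Transcription factors of the endoderm made up the list with the second highest share of lineage genes detected, 13 of 23 (56.5%). The pioneer factor FOXA1 had 11.41, 10.96 and 11.22, with FOXA3 at 9.92 ± 0.33 and FOXA2 at 8.81 ± 0.17. SOX9, a factor of progenitor cells, had 10.44, 10.01 and 10.47, and the orphan nuclear receptor ESRRG had 10.02, 9.54 and 10.32. GATA5 reached 8.66 ± 0.20. Of the 3 probes of each gene, 2 for FOXA2 and 1 for ESRRG were detected on no array. SOX17, PDX1, HHEX, ONECUT1, ONECUT2 and BARX1, which act in pancreas, liver, bile duct or stomach mesenchyme, were detected on none.

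Genes of other lineages were mostly not detected. For liver and pancreas the counts were 2 of 18 on all arrays and 13 on none, with ALB, AFP, APOB and INS among the 13. The exceptions were FGA, the fibrinogen alpha chain, with 9.45, 9.45 and 8.71 from the brightest of 3 probes, of which another was detected on all arrays (mean 7.26) and 1 on none, and CEL at 5.76 ± 0.46. Of 11 squamous and basal genes only KRT13 was detected on all arrays (5.65 ± 0.31), and KRT5, KRT14 and DSG3 were among the 6 detected on none.

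Of 27 genes of fibroblasts, muscle and endothelium 19 were detected on no array, among them FN1, SPARC, COL1A2, COL3A1, COL6A3 and DCN. Detection was partial for 4 others. COL1A1, a chain of type I collagen, was detected on 3 arrays with 4.88, 4.86 and 5.97 in replicates 1, 2 and 3. TWIST1, a transcription factor of mesenchyme, was detected on the HumanRef-8 arrays alone, with 6.51 and 6.64 there and 4.44 on HumanHT-12, and CDH2 was detected on 2 arrays. VIM, the mesenchymal filament vimentin, was detected but dim, with 5.16, 4.96 and 5.77. The actin-binding protein TAGLN had 8.88 and 10.43 on HumanRef-8 and 6.44 and 6.65 on HumanHT-12, from 1 of 3 probes, and smooth muscle actin ACTA2 had 8.66 and 8.49 on HumanRef-8 and 7.60 and 7.28 on HumanHT-12. Both were higher on each HumanRef-8 array than on either HumanHT-12 array, the reverse of EPCAM and CLDN18. PDGFRA, a growth factor receptor of mesenchyme, had 6.63 ± 0.37.

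The blood and immune list had 16 of 20 genes detected on no array, including PTPRC, CD3E, CD3D, CD4, CD8A and MS4A1, the defining markers of leukocytes, T cells and B cells. LYZ, lysozyme, which gastric and Paneth cells are known to make as well, was bright with 9.44, 11.13 and 10.96. CSF1R, a macrophage receptor tyrosine kinase, had 7.93, 8.36 and 9.48, and the macrophage protein CD68 had 6.40 ± 0.57. Of the 18 neuronal and glial genes 12 were detected on no array. The 3 detected on all arrays were TUBB3, a tubulin of neurons and many carcinomas, with 10.36, 10.12 and 8.83, the glutamate decarboxylase GAD1 (8.65 ± 0.32, all 3 of its probes detected) and the myelin protein MBP (8.35 ± 0.46, likewise from 3 probes). NEFM, NEFH, SYP, SYT1, RBFOX3 and SLC17A7 were detected nowhere.

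**Figure D4:**
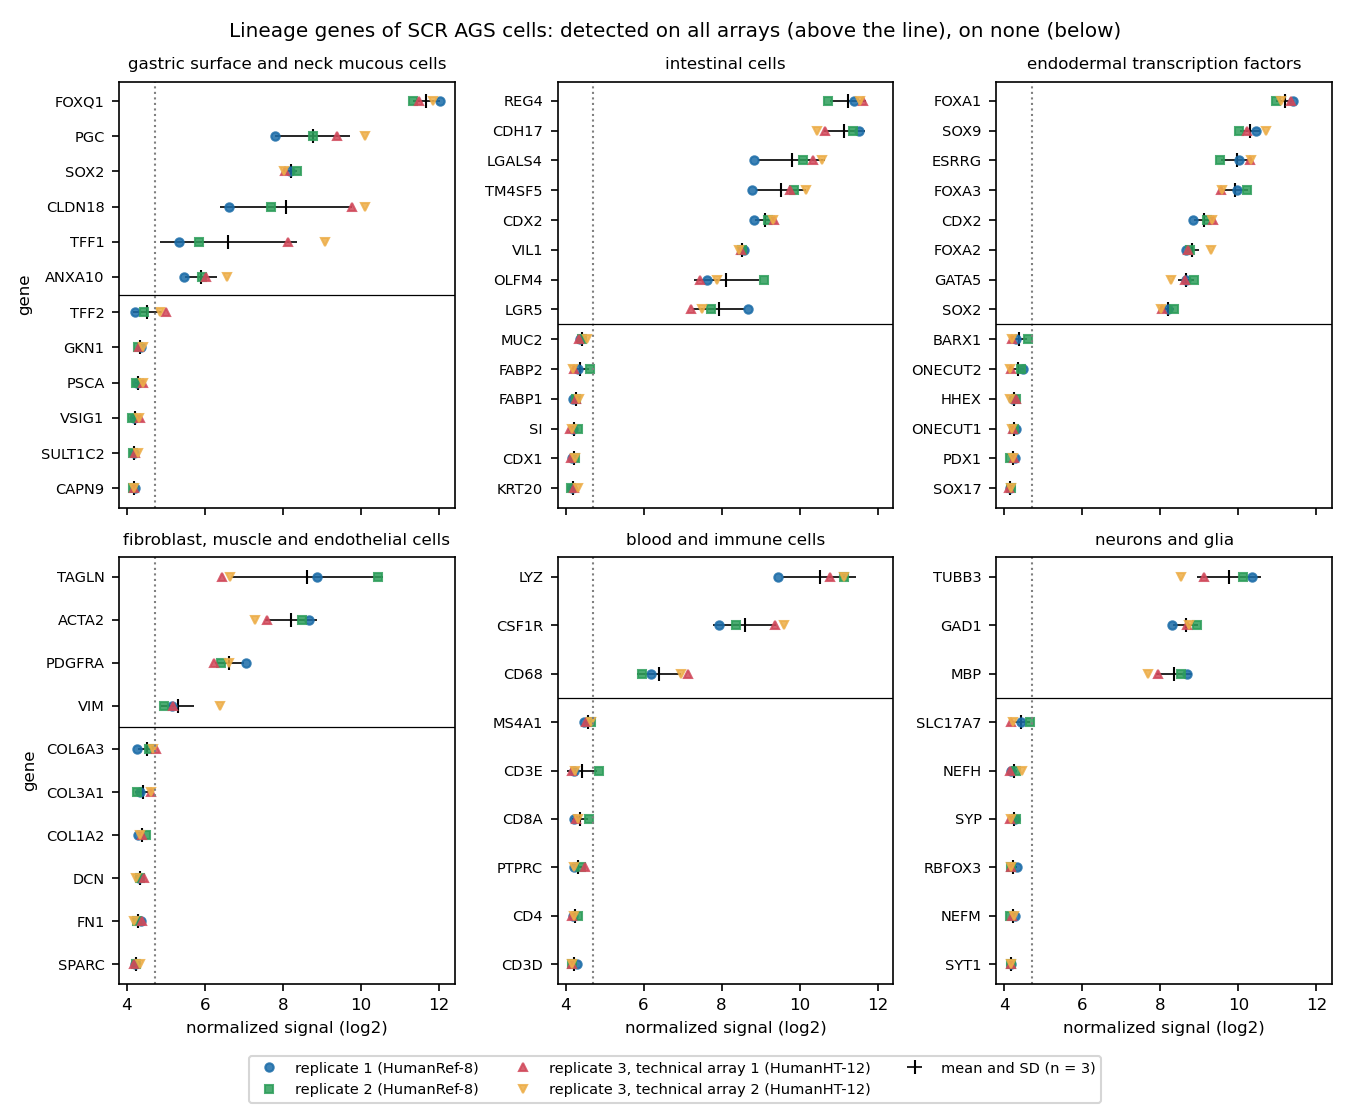
Normalized log2 signal (horizontal axis) of the named genes of 6 lineage lists on each array, with the mean and SD over 3 replicates, genes detected on all arrays above the black line in each panel and genes detected on none below it, and the median of all common probes dotted. REG4, CDH17, FOXQ1 and FOXA1 exceed a mean of 11, genes below the lines have means of at most 4.71, and TFF1, CLDN18 and TAGLN separate the array versions.

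Receptor tyrosine kinases, through which growth factors act, were detected on all arrays for 19 of 49 genes (38.8%) and on none for 19, beside 46.9% and 37.4% of all genes. The ERBB family pair ERBB2 and ERBB3 had 9.35, 9.88 and 8.93 for ERBB2 and 8.79, 9.83 and 10.00 for ERBB3. The fibroblast growth factor receptors FGFR3 (9.27 ± 0.43) and FGFR4 (8.88 ± 0.43) were detected and FGFR1 was not, although 1 of 3 FGFR4 probes and 2 of 3 ERBB2 probes were detected on no array. RYK, a Wnt co-receptor, had 9.62 ± 0.43, EPHA1 9.15 ± 0.37 and EPHB4 8.41 ± 0.41. The endothelial receptors FLT1, KDR, FLT4 and TEK were not detected on any array, nor were PDGFRB and FLT3. EGFR and MET were named after their values were seen. EGFR was dim, with 6.38, 6.81 and 6.24 from the brightest of 4 probes, of which 2 were detected nowhere. MET was dim on HumanRef-8 alone, with 6.04 and 5.22 there and 7.84 on HumanHT-12.

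G protein-coupled receptors had the lowest share of the receptor lists, with 14 of 62 (22.6%) detected on all arrays and 35 (56.5%) on none. F2R, the thrombin receptor, was nevertheless among the 30 brightest genes, with 12.89, 13.01 and 13.30 from its single probe. The CCR6 probe that reached 12.37, 11.60 and 12.86 stood beside another CCR6 probe detected on no array (mean 4.23), so the level of this chemokine receptor is uncertain. No other of the 16 chemokine receptor symbols was detected on all arrays, and 12 were detected on none. The adhesion receptor ADGRE5 (10.31 ± 0.20), the retinoic acid-induced GPRC5C (8.88 ± 0.06), the lysophosphatidic acid receptor LPAR2 (8.58 ± 0.39), the adenosine receptor ADORA2B (8.48 ± 0.14) and the R-spondin receptor LGR4 (7.60 ± 0.69) were detected. The prostaglandin receptors PTGER1, PTGER3, PTGFR, PTGIR and PTGDR and the thromboxane receptor TBXA2R were detected on none, and PTGER2 and PTGER4, members of the same family, were detected at 6.02 ± 0.28 and 5.35 ± 0.21. Gastric acid receptors HRH2 and CCKBR were also among the undetected.

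Nuclear receptors, which bind lipid ligands and DNA, counted 14 of 40 detected on all arrays and 15 on none. PPARG, the fatty acid sensor, was the brightest with 10.28, 10.25 and 9.96. Its obligate partner group, the retinoid X receptors, was represented by RXRA (8.35 ± 0.49) and RXRB (7.80 ± 0.76), with RXRG detected nowhere. The retinoic acid receptor RARA had 7.70 ± 0.46, with 1 of its 3 probes detected nowhere, and the oxysterol sensor NR1H3 7.31 ± 0.23. The steroid receptors ESR1, ESR2 and PGR were not detected on any array.

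Of the interferon receptors, those of types I and II had both chains detected and that of type III did not. Both chains of the interferon gamma receptor were detected, IFNGR2 with 10.63, 10.88 and 10.51 and IFNGR1 with 9.66, 9.56 and 9.33, as were both chains of the type I receptor, IFNAR1 (7.02 ± 0.54) and IFNAR2 (6.70 ± 0.09, with another probe detected nowhere). IFNLR1, the specific chain of the interferon lambda receptor, was detected on no array, while its partner IL10RB had 8.96 ± 0.28. IL13RA1 (9.10 ± 0.56) and IL4R (6.48 ± 0.12), which form the receptor for interleukins 4 and 13, were both detected. IL1R1, IL1R2, IL2RA, IL2RG and IL6R were among the 21 of 46 cytokine and Toll-like receptor genes detected nowhere, against 17 detected on all arrays. Among those 17 was CSF2RA, with 8.54, 8.39 and 9.65 from the brightest of 3 probes, of which 1 was detected nowhere.

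Among TNF family receptors 11 of 26 were detected on all arrays and 11 on none. TNFRSF21, a death domain receptor, had 10.53, 10.22 and 9.99, the TRAIL receptor TNFRSF10B had 9.97, 8.69 and 9.38, and its relative TNFRSF10A had 7.14 ± 0.14. TNFRSF1A, the main TNF receptor of epithelia, had 8.70 ± 0.21 and LTBR 8.99 ± 0.25. FAS was detected on no array. Of the receptors for Wnt, Notch, Hedgehog and TGF-beta signals 15 of 30 were detected on all arrays, led by TGFBR2 (9.92 ± 0.56), the activin receptor ACVR1B (8.94 ± 0.05, with 2 of 4 probes detected nowhere) and BMPR2 (8.39 ± 0.78). TGFBR1, the signaling partner of TGFBR2, was detected on only some of the arrays. NOTCH1 had 8.61 and 8.23 on HumanRef-8 and 7.33 on HumanHT-12, and 6 of 10 frizzled symbols were detected on all arrays, with FZD2 (7.56 ± 0.30) the brightest.

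Integrin and matrix receptor genes were detected on all arrays for 12 of 29. The common beta chain ITGB1 had 11.89, 10.83 and 11.03, ITGB5 had 11.33, 10.99 and 10.21, and their alpha partner ITGAV had 8.47 ± 0.29. ITGA3 (8.16 ± 0.40), ITGA6 (7.98 ± 0.39) and ITGA2 (7.61 ± 0.64), epithelial partners of ITGB1, were detected, as was CD44 (8.43 ± 0.34), the hyaluronan receptor. Of the probes for ITGB1 2 of 4 were detected on no array, and for ITGA3 1 of 2. The leukocyte and platelet chains ITGAL, ITGAM, ITGAX, ITGA2B and ITGB3 were not detected on any array. Other leukocyte chains were, ITGAE on all arrays with 7.80, 8.14 and 8.31, and ITGA4 on 1 array. ITGB2, the common beta chain of leukocyte integrins, was detected on the HumanHT-12 arrays alone, with 4.39 and 4.23 on HumanRef-8 and 6.32 and 6.34 on HumanHT-12.

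Transporter genes carry sugars, amino acids, ions and metals across membranes. Over all 363 solute carrier symbols, 146 (40.2%) were detected on all arrays and 150 (41.3%) on none. For glucose, SLC2A1, the common transporter GLUT1, had 9.49, 9.45 and 9.25, and the intracellular SLC2A8 had 9.56, 10.18 and 9.36. SLC2A3 had 7.79 and 6.99 on HumanRef-8 and 6.40 on HumanHT-12, while SLC2A2, SLC2A4 and SLC2A5, the liver, muscle and fructose transporters, were detected nowhere. BSG, the chaperone of the monocarboxylate transporters, had 10.79 ± 0.15, with another probe detected on no array. Both subunits of the mitochondrial pyruvate carrier were bright, MPC1 at 10.09 ± 0.39 and MPC2 at 9.74 ± 0.15. The list held 10 of 27 genes detected on all arrays and 11 on none.

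Amino acid transporters were led by SLC7A5, the light chain of the transporter LAT1, with 10.72, 10.37 and 10.77, and its heavy chain SLC3A2 had 8.85, 8.97 and 9.84. The glutamine transporters SLC1A5 (9.63 ± 0.33), SLC38A1 (9.67 ± 0.62) and SLC38A2 (8.69 ± 0.73) and the cationic transporter SLC7A1 (9.51 ± 0.23) were all detected. SLC7A11, the cystine carrier that also pairs with SLC3A2, was detected on only some arrays. SLC3A1, SLC6A14, SLC6A19 and the peptide transporter SLC15A1 were among the 10 of 35 detected nowhere, against 16 on all arrays.

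Of the genes for ion pumps and exchangers 17 of 37 were detected on all arrays. The beta subunits ATP1B1 and ATP1B3 of the sodium-potassium pump were bright, with 11.59, 10.68 and 11.76 for ATP1B1 and 11.12, 10.27 and 11.30 for ATP1B3. The calcium pump ATP2A2 (9.76 ± 0.31), the phosphate carrier SLC20A1 (10.07 ± 0.33), the sodium-proton exchanger SLC9A2 (8.73 ± 0.36) and the chloride cotransporter SLC12A2 (8.57 ± 0.28) followed. Another beta subunit, ATP1B2, was detected on 2 arrays only, with 6.79 and 7.20 on HumanRef-8 and 4.34 and 4.24 on HumanHT-12. Of the acid pump genes, ATP12A and the stomach subunit ATP4B were detected on no array, and ATP4A on both HumanHT-12 arrays alone. Of the V-type proton pump, which acidifies lysosomes, 16 of 23 symbols (69.6%) were detected on all arrays.

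Epithelial channels were detected on all arrays for 15 of 38 genes and on none for 18. The porins VDAC1 (11.89 ± 0.35) and VDAC3 (11.67 ± 0.31) of the mitochondrial outer membrane were bright, as was the intracellular chloride channel CLIC1 (11.59 ± 0.16). CFTR, the chloride channel of secretory epithelia, had 8.66, 7.90 and 9.02, and the calcium-activated chloride channel ANO1 had 7.70 ± 0.23. The sodium channel subunit SCNN1A was detected at 6.89 ± 0.42, whereas its partners SCNN1B and SCNN1G were not. AQP11 was the only one of 11 aquaporin genes detected on all arrays (7.21 ± 0.46), and potassium channels were detected on all arrays in 5 of 73 cases (6.85%).

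Metal transporters had 21 of 36 detected on all arrays. TFRC, which takes up transferrin-bound iron, had 12.07, 11.36 and 11.27, and the iron importer SLC11A2 had 9.91, 10.12 and 9.53, while the exporter SLC40A1 had 7.77 ± 0.50. The zinc importers SLC39A1 (9.99 ± 0.21) and SLC39A14 (9.82 ± 0.47) were also bright. Mitochondrial carriers had the highest share of the transporter lists, with 21 of 32 (65.6%) detected on all arrays and 3 (9.38%) on none. The adenine nucleotide carrier SLC25A5 had 13.13, 12.95 and 12.96, the phosphate carrier SLC25A3 had 11.88 ± 0.29, and the citrate carrier SLC25A1 had 9.36 ± 0.39.

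Listed ABC transporters counted 15 of 34 (44.1%) on all arrays and 10 on none, while of all 41 genes with an ABC symbol 13 (31.7%) were detected on all arrays and 17 (41.5%) on none. The brightest members, ABCF1 (10.60 ± 0.35) and ABCE1 (9.85 ± 0.62), act in translation and do not transport. TAP1, which carries peptides for antigen presentation, had 9.60, 10.04 and 8.53, with its partner TAP2 at 7.20 ± 0.47. Among drug exporters ABCC3 had 8.78 ± 0.31 and ABCC4 7.88 ± 0.45, and ABCB1 and ABCC2 were detected on no array. Organic ion, nucleoside, vitamin and lipid carriers had 18 of 40 detected on all arrays. SLCO2A1, the prostaglandin uptake transporter, had 9.54, 9.04 and 9.16, SLC52A2, a riboflavin transporter, had 9.41 ± 0.31, and SLC5A6, a multivitamin transporter, had 9.02 ± 0.61. The equilibrative nucleoside transporter SLC29A2 was detected (8.12 ± 0.28) and SLC29A1 was not.

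HIF1A, the target of the hairpin in the knock-down cells of the series, was detected on all SCR arrays by both of its probes. The brighter probe had signals of 8.84, 7.43 and 8.35 in replicates 1, 2 and 3.

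The ranking of signals was compared between the array versions over the 24525 probes that both hold. The Spearman correlation of the mean of replicates 1 and 2 (HumanRef-8) with replicate 3 (HumanHT-12) was 0.884. It was 0.886 for replicate 1 with replicate 3 and 0.855 for replicate 2 with replicate 3, against 0.902 for replicates 1 and 2 within HumanRef-8 and 0.955 for the technical arrays of replicate 3. Over the 10051 probes detected on all arrays the values were 0.938 and 0.919 across versions, 0.931 within HumanRef-8 and 0.984 for the technical arrays. These are correlations across probes of the same arrays, and probes are not independent replicates. Over detected probes the values across versions thus lay on both sides of that within HumanRef-8, and all were below that of the technical arrays.

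The overlap of the brightest genes was counted for the same pairs. Of the 100 brightest genes 73 were common to HumanRef-8 (mean of replicates 1 and 2) and HumanHT-12. Single replicates shared 69 (replicates 1 and 3) and 68 (replicates 2 and 3) across versions, against 66 within HumanRef-8 and 96 between technical arrays. Of the 500 brightest, 418 were common to both versions. Among 7976 genes whose brightest probe was detected on all arrays, the median absolute difference was 0.32 on the log2 scale between versions and 0.40 between replicates 1 and 2. The first is a difference between means of arrays and the second one between single arrays. Averaging narrows the first, so these values do not show that versions agreed better than replicates. The difference between versions was similar over the range of signal, between 0.30 and 0.36 in 4 groups of equal size by signal.

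A minority of genes departed from this. HumanRef-8 was higher than HumanHT-12 by at least 1 on the log2 scale for 117 of these genes (1.47%) and lower for 359 (4.5%). Replicate 1 was higher than replicate 2 by as much for 339 (4.25%) and lower for 479 (6.01%). These counts compare single arrays and those between versions compare means, so they are not alike. Among 293 members of the lists, HumanRef-8 was higher for 12 (4.10%), among them CEACAM6, ACTA2, TAGLN, TUBB3 and NOTCH1, and lower for 13 (4.44%), among them EPCAM, CLDN18, TFF1, PGC, CBLIF, CSF1R and MET. The 4.10% stands beside 1.47% of all genes and the 4.44% beside 4.5%. Of the gastric lists, CLDN18, TFF1, PGC and CBLIF were among the 13 lower genes. The other members of those lists detected on all arrays, FOXQ1 (0.03), SOX2 (0.23) and ANXA10 (-0.60), differed by less than 1 between versions.

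Ordered by the difference in percentile, EPCAM had the largest gap with a lower rank on HumanRef-8. It was followed by NFATC2IP, with signals of 6.73 and 5.71 on HumanRef-8 and 9.84 on HumanHT-12, then TFF1 and CLDN18. NUTF2, MSMB, GSTA1, CCBE1, TXNIP and RPL7A completed the 10. RPL7A is a ribosomal protein gene that every cell uses, yet its probe had 7.79 and 8.20 on HumanRef-8 and 11.53 and 11.76 on the HumanHT-12 arrays. TXNIP, a gene induced by glucose, had 7.99 and 7.62 on HumanRef-8 and 10.36 and 11.71 on HumanHT-12. GSTA1, a glutathione transferase, had 6.41 and 8.54 against 10.15 and 10.41, so replicates 1 and 2 also differed from each other.

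In the other direction TAGLN came first, followed by TEX30, YBEY, DPYSL3, DMBT1, OLR1, GSTCD, MEPCE, CEACAM6 and ZNF618. TEX30 had 9.15 and 9.62 on HumanRef-8 and 6.90 on HumanHT-12. MEPCE, a methyltransferase of a small nuclear RNA, had 9.61 and 9.84 against 7.69, and CEACAM6, a cell adhesion molecule of the carcinoembryonic antigen family, had 9.07 and 8.70 against 7.06. These genes and the 10 above were chosen for their difference, and both HumanHT-12 arrays are of replicate 3. That their values did not overlap between versions therefore follows from the choice. Whether the version or the culture of replicate 3 made the differences cannot be told apart.

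**Figure D5:**
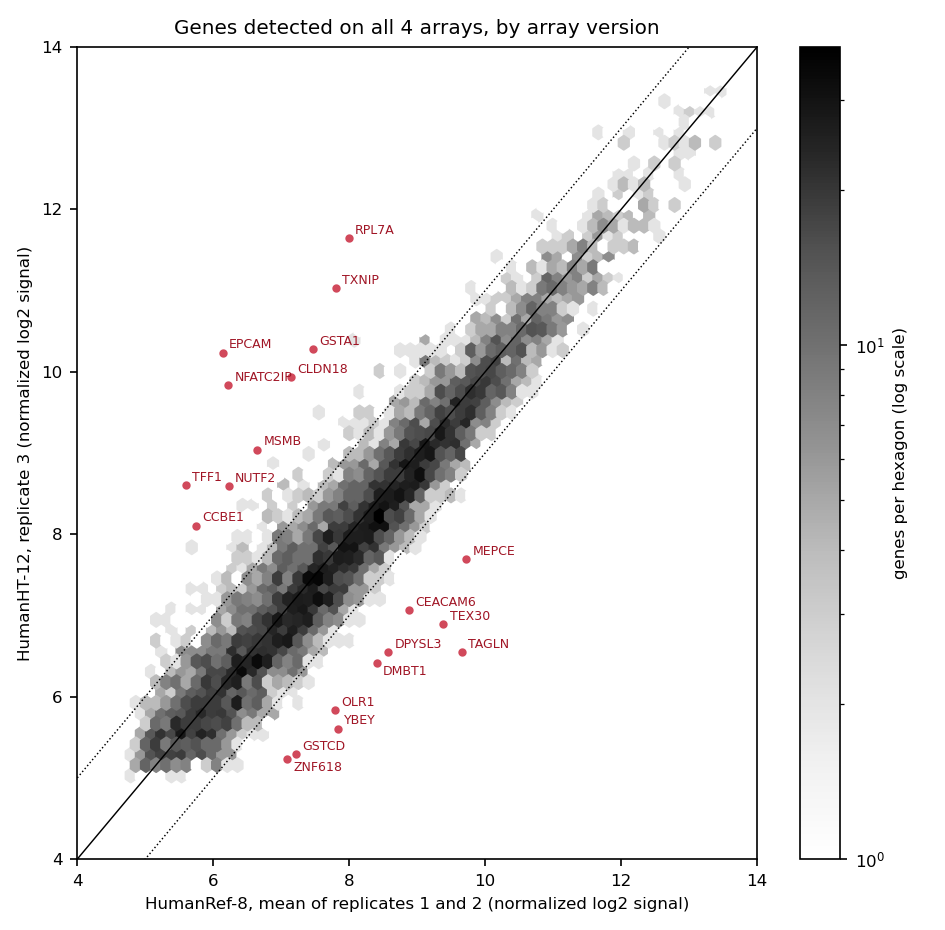
Normalized log2 signal on HumanRef-8 (mean of replicates 1 and 2, horizontal axis) against HumanHT-12 (replicate 3, vertical axis) for genes whose brightest probe was detected on all 4 arrays, shaded by the number of genes per hexagon, with the 10 genes of largest percentile difference in each direction in red. Dotted lines mark a difference of 1, past which HumanRef-8 was lower for 359 genes and higher for 117, and EPCAM lies farthest above the diagonal in percentile.

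Within HumanRef-8, the genes with the largest percentile gap between replicates 1 and 2 were chosen in the same way. Lower in replicate 1 than in replicate 2 were REG3A, a secreted antibacterial lectin (4.57 and 8.07), BST2, the interferon-induced tetherin (5.05 and 8.0), the chemokines CXCL8 (5.99 and 8.76) and CCL20 (5.73 and 8.38), and PI3, the secreted protease inhibitor elafin (5.84 and 8.50). In replicate 3 these genes had 5.34, 5.76, 5.81, 6.59 and 7.06 in that order. These values were nearer to replicate 1 than to replicate 2, although for CCL20 (7.16) and PI3 (7.20) a technical array was nearer to replicate 2. Higher in replicate 1 were NOMO3 (8.49 and 6.25), HSPA4 (8.55 and 6.44), ADAM9 (9.50 and 7.26), CASP8 (7.61 and 5.51) and BROX (7.11 and 5.20). Their values in replicate 3 were 7.14, 8.44, 8.12, 6.87 and 6.16 in that order, nearer to replicate 1 for HSPA4 and CASP8, nearer to replicate 2 for NOMO3 and ADAM9, and midway for BROX.

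HumanHT-12 also measured 3018 genes with no probe common to both versions. Of these 610 (20.2%) were detected on both SCR arrays and 2230 on neither. By annotation the share was 334 of 1108 protein-coding genes (30.1%), 94 of 659 long noncoding RNAs (14.3%), 73 of 270 small nucleolar RNAs (27.0%) and 13 of 561 microRNAs (2.32%). Of the 10 brightest 6 were annotated as pseudogenes, led by RPL13AP5 (13.49 and 13.30 on the technical arrays), RPSAP9 (13.25 and 13.31), RPL13AP20 and ANXA2P2. RPL13AP3, RPL19P12, PPIAL4A, ZNF674 and RPS18 were also among them. The pseudogenes and PPIAL4A closely resemble abundant parent genes, so which copy their signals belong to is uncertain. SNAR-A1, a small noncoding RNA, differed between the technical arrays, with 13.02 and 11.85. Among 12 listed genes measured here alone, the copper importer SLC31A1 (8.11 and 7.85), the peroxisomal transporter ABCD3 (7.28 and 6.99), the epithelial splicing regulator ESRP1 (6.39 and 6.31) and the gastric calpain CAPN8 (5.46 and 6.05) were detected on both arrays.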

How the data were processed

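Total RNA was labeled with biotin and hybridized to Illumina BeadChips. The authors deposited log2 signals per probe and array in tables named non-normalized, each with a detection p-value, and processed log2 signals that they normalized with RMA within each replicate. The deposited log2 values were returned to the linear scale, corrected for background with nec of limma 3.58.1 in R 4.3.3 (offset 16, negative controls inferred from the detection p-values) and quantile-normalized over the 4 SCR arrays and the 24525 common probes. Both probe annotations named 22317 of these with 1 symbol, and 22296 of them had a gene ID in the GRCh38.p14 gene table. Probes named differently by the versions (16) or with several symbols (8) were left unnamed. Signals of genes on HumanHT-12 alone were instead quantile-normalized over the SCR arrays of that version and all of its 47323 probes. They are therefore not on the same scale as the other signals. There were 0 unmatched sample columns. Only 1 group was described, so no test was run, and the number of arrays limits the precision. The members and gene lists were chosen with earlier results of these data known. Genes named were the markers, the 30 brightest, up to 8 detected and 6 undetected members of each list with their partners, the 10 (versions) and 5 (replicates 1 and 2) largest percentile differences in each direction, and the 10 brightest genes on HumanHT-12 alone. Members named outside this rule, after their values were seen, were VDAC2, CDH1, CLDN4, DSP, ATP4A, COL1A1, TWIST1, CDH2, ITGB2, AQP5, SST, GHRL, CHGA, INS, FLT4, TEK, EGFR, MET, PTGER2, PTGER4, HRH2, CCKBR, IFNLR1, IL4R, TNFRSF10A, TGFBR1, ITGA6, ITGA2, ITGA4, ITGAX, ITGB3, SLC7A11, SLC15A1, ATP1B2, SCNN1A, AQP11, SLC40A1, TAP2 and SLC29A1, with RPL10, KRT10, KRT80 and HIF1A. Genes on the Y chromosome and some members that the rule names were left out of the text. Scripts (Python 3.11.15) were tested on simulated data. Alternatives covered detection thresholds, background, normalization, probes and each replicate left out.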

Additional observations from a re-analysis of the deposited data

How the results depend on the processing

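No paired analysis was possible because only the SCR group was described and no result comes from a test. The counts of genes detected on all 4 arrays (7999) and on none (6377) stayed within 1.5 times under every alternative tried. They lay between 7689 and 8792 and between 5278 and 7297, over thresholds of 0.001 and 0.05, the brightest probe alone, either technical array and each replicate left out. With all probes of HumanHT-12 on its own arrays, which measure more genes, the counts were 8842 and 7480. The Spearman correlation between versions (0.884) was 0.945 over probes detected on all arrays and 0.906 with the brightest probe of each gene, and between 0.855 and 0.886 with replicate 1 or 2 left out. The share of the 100 brightest genes common to both versions (73.0%) was 71.0% with the mean of a gene's probes, 83.6% for the 500 brightest, and between 68.0% and 69.0% with replicate 1 or 2 left out. List counts moved by over 1.5 times only for parietal, chief and endocrine cells (1 gene, 2 at a threshold of 0.05 or without replicate 2, 3 without replicate 3) and for liver and pancreas (2 genes, 1 at 0.001). Of 360 named gene signals, 157 moved by over 1 SD with an offset of 50, 143 without background correction and 157 with the authors' processed values, against 41 with median scaling, 9 with normalization within each version and 6 with all 9 arrays. All 360 were higher with an offset of 50, and all 360 without background correction. With the authors' processed values 170 were higher and 189 lower. Leaving out a replicate cannot move a mean of 3 by 1 SD, so that count says nothing here. Without replicate 3, the mean was 6.14 for EPCAM and 7.15 for CLDN18, against 7.50 and 8.07 with it. The cause of these moves was not tested. Signal over background limits the calls of dim genes, whose medians were 4.72 for genes detected on some arrays and 4.25 for genes detected on none.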
